A study of Homo sapiens with 4 samples.

Results

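POR lies on the plus strand of chromosome 7 (ENSG00000127948, chr7:75528518-75616173, hg19/GRCh37) and encodes cytochrome P450 oxidoreductase. The peaks described here are those of 4 ATAC-seq peak lists that overlapped the gene or the 100 kb on either side of it (chr7:75428518-75716173). In all, 58 of the 195019 peaks in the 4 lists met this rule, and they formed 22 separate regions of the 78063 formed by all peaks once those sharing at least 1 bp were joined. The locus was chosen by its many ATRA-only peaks in these same lists, so presence, width and score by group are given as a description and no test was made.

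ATAC-seq marks open chromatin as places where the transposase Tn5 can cut. The cells were HL-60, an established human leukemia line, which matures toward neutrophils under all-trans retinoic acid (ATRA). Cells of 2 replicates were kept in 1 µM ATRA over 4 days, and cells of the other 2 in the ethanol that ATRA was dissolved in, with fresh medium and agent on day 2. All 4 libraries came from this single line and carried no other treatment. The study describes the replicates as independent biological ones, and the labels do not say what separated them.

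Cytochrome P450 oxidoreductase is a flavoprotein of the endoplasmic reticulum that takes electrons from NADPH through its FAD and FMN groups and hands them to the microsomal cytochrome P450 enzymes. It also supplies heme oxygenase, squalene monooxygenase and cytochrome b5, so steroid, sterol, drug, heme and retinoid metabolism all draw on it. The retinoic acid hydroxylases of the CYP26 family are among the P450 enzymes that depend on it. Retinoic acid acts through receptor pairs that bind direct repeats of a short half-site, of which the repeat spaced by 5 bases, DR5, is the classical one.

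Some sequences of the window are shown first, each as the 200 bases about the centre of a region (GRCh37, plus strand), with the searched motifs in capitals. Regions are numbered 1 to 22 from left to right along the window. Region 15 is shown because it was the widest and best-scoring of the window's regions found in both ATRA lists and neither control list, and its capitals mark a DR5. Regions 12 and 9 hold the CEBP motif and region 2 an AP-1 motif. Regions 6 and 14 were also found in both ATRA lists and neither control list. They hold none of the searched motifs and are not shown. The 200 bases before the first start site of the main POR promoter, which was open in all 4 libraries, are shown beside them and hold none of the searched motifs.
Region 15, chr7:75601319-75601518: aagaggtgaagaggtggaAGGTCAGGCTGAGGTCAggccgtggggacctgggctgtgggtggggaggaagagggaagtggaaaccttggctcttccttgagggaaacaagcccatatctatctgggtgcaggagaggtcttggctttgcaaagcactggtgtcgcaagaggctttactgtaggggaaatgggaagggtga
Region 12, chr7:75580898-75581097: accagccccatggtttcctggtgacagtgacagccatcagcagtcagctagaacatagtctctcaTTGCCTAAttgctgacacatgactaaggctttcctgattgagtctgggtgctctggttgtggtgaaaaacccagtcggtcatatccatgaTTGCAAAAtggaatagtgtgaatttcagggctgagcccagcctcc
Region 9, chr7:75535300-75535499: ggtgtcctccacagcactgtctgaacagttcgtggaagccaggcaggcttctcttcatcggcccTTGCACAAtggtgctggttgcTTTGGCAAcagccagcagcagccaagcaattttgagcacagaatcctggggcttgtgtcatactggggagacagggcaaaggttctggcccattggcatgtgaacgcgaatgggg
Region 2, chr7:75472218-75472417: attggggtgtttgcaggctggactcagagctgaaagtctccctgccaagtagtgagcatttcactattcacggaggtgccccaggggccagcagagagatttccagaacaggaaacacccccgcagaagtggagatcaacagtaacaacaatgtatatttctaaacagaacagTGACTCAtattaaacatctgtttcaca
POR promoter, chr7:75544205-75544404: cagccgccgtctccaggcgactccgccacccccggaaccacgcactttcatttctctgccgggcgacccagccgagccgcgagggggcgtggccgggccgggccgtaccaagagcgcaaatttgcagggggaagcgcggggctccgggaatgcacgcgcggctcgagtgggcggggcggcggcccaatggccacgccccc

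The 2 ATRA libraries had more peaks in the window than the 2 control libraries. ATRA replicate 1 had 16 peaks and ATRA replicate 2 had 22, against 9 in control replicate 1 and 11 in control replicate 2. The mean was 19 ± 4.24 peaks (SD, n = 2) with ATRA against 10 ± 1.41 peaks (SD, n = 2) without it, a ratio of 1.90. The peaks covered 6.20 kb and 10.3 kb of the window in the ATRA libraries and 3.08 kb and 3.20 kb in the control libraries. List length moves with this count, and its part in the result was not tested. The whole lists held 43494 and 63541 peaks in the ATRA libraries and 42081 and 45903 in the control libraries. Per 10000 peaks of its own list, the window held 3.68 and 3.46 peaks in the ATRA libraries and 2.14 and 2.40 in the control libraries. Choosing the locus by its ATRA-only peaks in these lists favours higher values with ATRA. The share of other gene windows with both ATRA values above both control values is not given here. Within the POR gene itself the numbers were 6 and 7 peaks against 1 and 2.

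Every one of the 22 regions had a peak in ATRA replicate 2, the longest list, which had a peak in 80.5% of all regions of the series. Of the 22 regions, 6 had a peak in both ATRA libraries and in neither control library, where 8.94% of all regions of the series did. No region had the opposite pattern, which 3.37% of all regions had. Another 8 regions were open in all 4 libraries, 5 in ATRA replicate 2 alone, 2 in both ATRA libraries and control replicate 2, and 1 in ATRA replicate 2 and both control libraries. When ATRA replicate 1 was left out, 11 regions had a peak in the remaining ATRA library and in neither control library, and without ATRA replicate 2, 1 region, region 7, had the opposite pattern. Counted here after the rule in the study's methods, which keeps as convincing the peaks found in both replicates of a group, the window held 16 convincing peaks in the ATRA-treated cells, of which 8 were ATRA-specific, where 37.3% of all ATRA convincing peaks were. It held 9 convincing peaks in the control cells, of which 1 was control-specific, where 23.7% of all control convincing peaks were. The 8 ATRA-specific peaks included regions 13 and 21, which also had a peak in control replicate 2, with percentiles of 54.6 and 42.2 there. When ATRA replicate 1 was left out, the ATRA-specific count was 13 and the control-specific count 0.

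**Figure D1:**
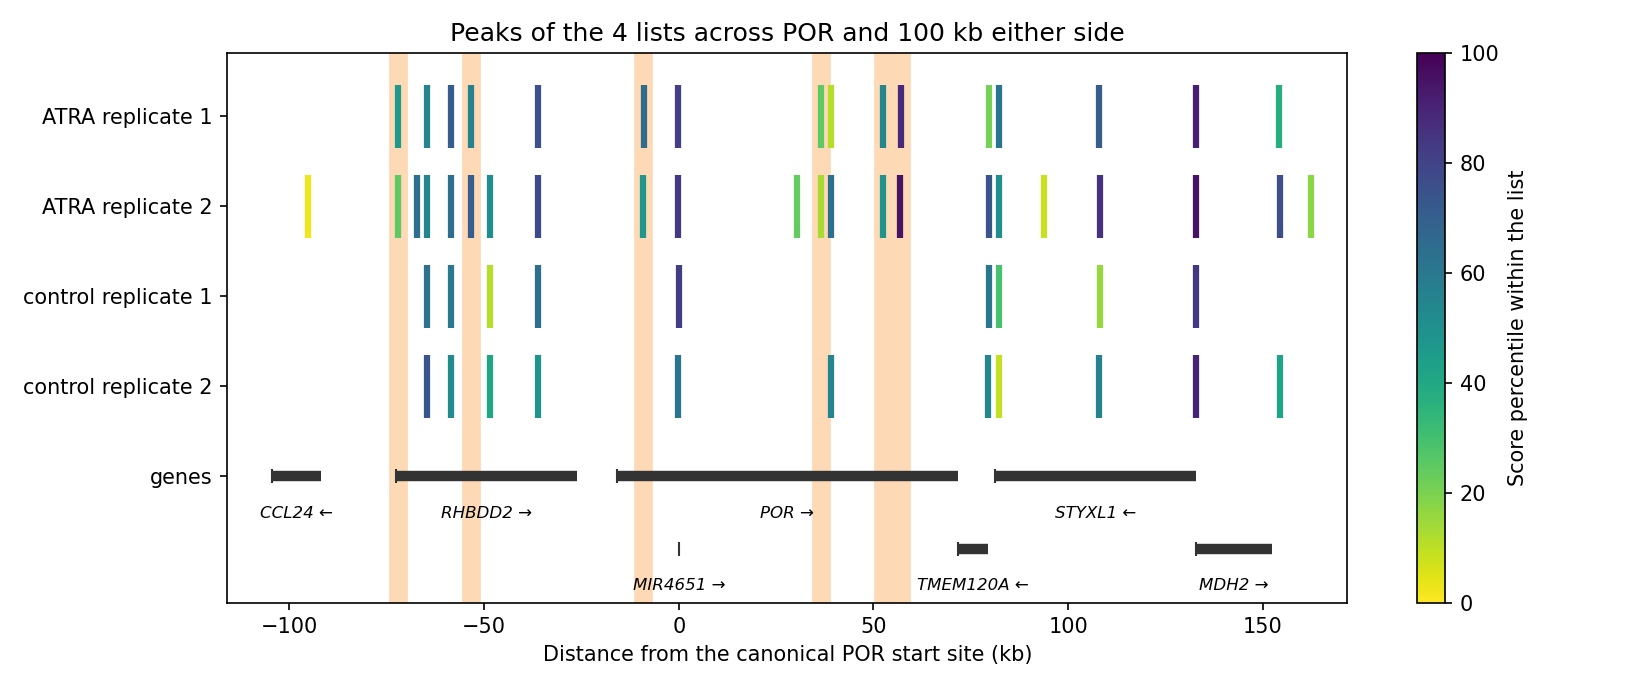
Peaks of the 4 libraries across POR and 100 kb on either side, with the distance from the canonical POR start site (kb) on the horizontal axis and a tick at each peak's centre, coloured by its score percentile within its own list. Orange bands mark the 6 regions with a peak in both ATRA libraries and in neither control library (band width is not to scale), and dark bars mark the protein-coding genes and MIR4651 with arrows for their strand. Of the 6 bands, 4 fall on POR and 2 on RHBDD2.

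**Figure D2:**
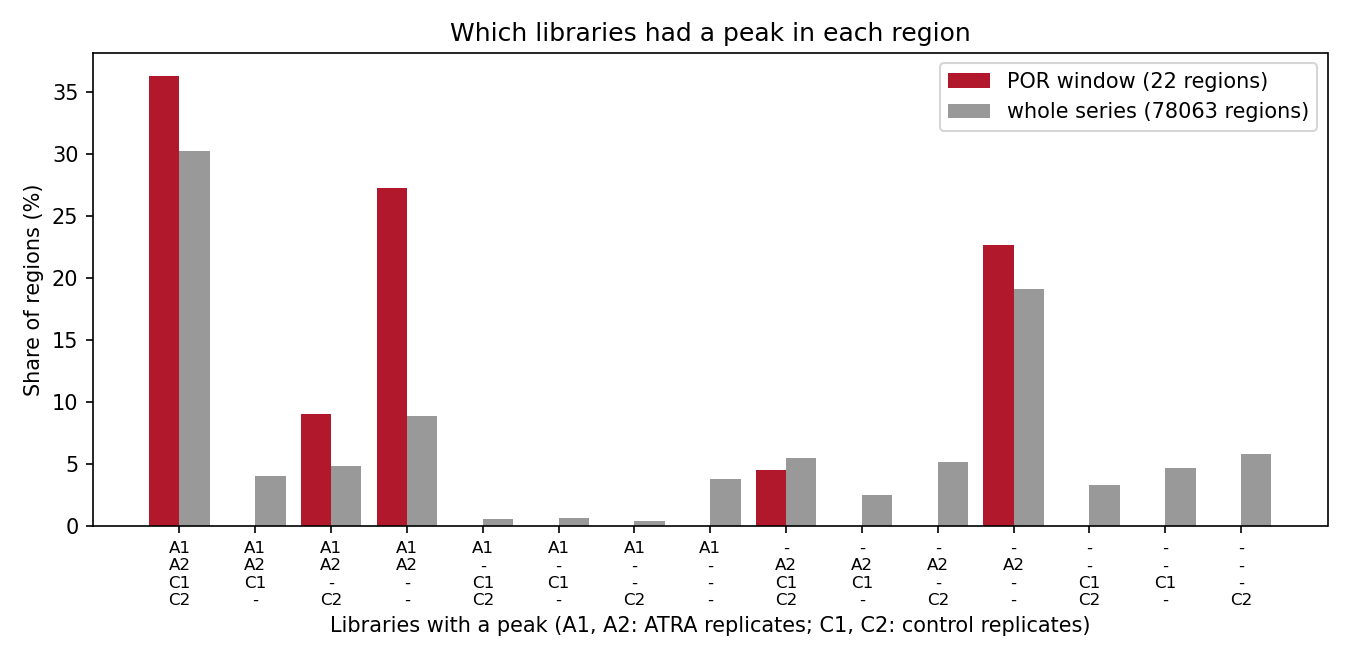
Share of regions (%) with each pattern of presence over the 4 libraries, for the 22 regions of the POR window (red) and the 78063 regions of the whole series (gray). The pattern with both ATRA replicates and no control replicate holds 27.3% of the window and 8.94% of the series, and the patterns absent from the window are all those without ATRA replicate 2 and 3 of those with it.

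The 6 ATRA-only regions, as those in both ATRA libraries and in neither control library are called from here on, were spread over 130.0 kb, with 4 on POR and 2 on its left neighbour RHBDD2, a gene for a rhomboid-domain protein. The strongest was region 15 (chr7:75600739-75602098), centred 56.9 kb downstream of the canonical POR start. Its peak was 927 bp wide with a score of 297 in ATRA replicate 1 and 1331 bp wide with a score of 462 in ATRA replicate 2, or score percentiles of 88.4 and 95.0 within those lists. Both peaks covered the whole of exon 3 of the canonical transcript (chr7:75601731-75601779), a coding exon of 49 bp among 16 exons, and the rest of the region lay in introns 2 and 3. By mean score percentile it ranked 11 and by mean width 20 among the 6976 ATRA-only regions of the series. The nearest control peak ended 17.0 kb to its left, and the next one to its right began 21.8 kb away. The centres of the 2 ATRA peaks lay 231 bp apart, so that they no longer met when each peak was reduced to 200 bp about its centre.

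Region 14 (chr7:75596612-75597247) lay 3.49 kb to the left of region 15, in intron 2 of the canonical transcript, and contained the annotated starts of 3 shorter POR transcripts, at positions 75597161 and 75597163. It was 374 bp wide with a score percentile of 53.9 in ATRA replicate 1 and 636 bp wide with one of 48.7 in ATRA replicate 2. Both scores were close to the middle of their lists. Regions 14 and 15 were the only ones in the longest stretch between any neighbouring control peaks of the window, 40.2 kb from chr7:75583718 to chr7:75623879. That stretch reaches from behind exon 2 of the canonical transcript to the promoter of TMEM120A and holds the other 14 exons of POR. A longer stretch without a control peak, 51.0 kb from the left edge of the window to region 4, held regions 1, 2 and 3.

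Region 12 (chr7:75580773-75581222) lay in intron 1, 36.5 kb downstream of the canonical start, and was the weakest of the 6. Its score percentile was 24.7 in ATRA replicate 1 and 13.1 in ATRA replicate 2, with scores of 71.3 and 60.4 where the lists begin at 50.01 and 50. The nearest control peak, which belongs to region 13, began 2.14 kb to its right. Regions 12 and 2 were no longer in both ATRA lists when each list was reduced to its best 42081 peaks. Region 9 (chr7:75535162-75535636) lay at -9.07 kb, upstream of the canonical start but within the POR transcript that begins farthest upstream, outside its exons. Its percentile was 64.9 in ATRA replicate 1 and 47.0 in ATRA replicate 2, and the 2 peaks shared 187 bp.

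The other 2 ATRA-only regions lay on RHBDD2, in an intron of its longest transcript, which has no defined coding sequence and begins upstream of the coding ones. Region 6 (chr7:75490864-75491286), at -53.4 kb, had percentiles of 55.7 in ATRA replicate 1 and 70.8 in ATRA replicate 2. Region 2 (chr7:75472107-75472528), at -72.2 kb, had percentiles of 45.8 and 24.8. It lay just downstream of where the annotated RHBDD2 gene begins, at position 75471920. Of the 6 regions, region 15 alone was past a percentile of 80 in either ATRA list. The median over the 6 regions of their mean ATRA percentile was 53.6, beside 37.5 over all 6976 ATRA-only regions, and the median of their mean width was 383 bp beside 341 bp.

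**Figure D3:**
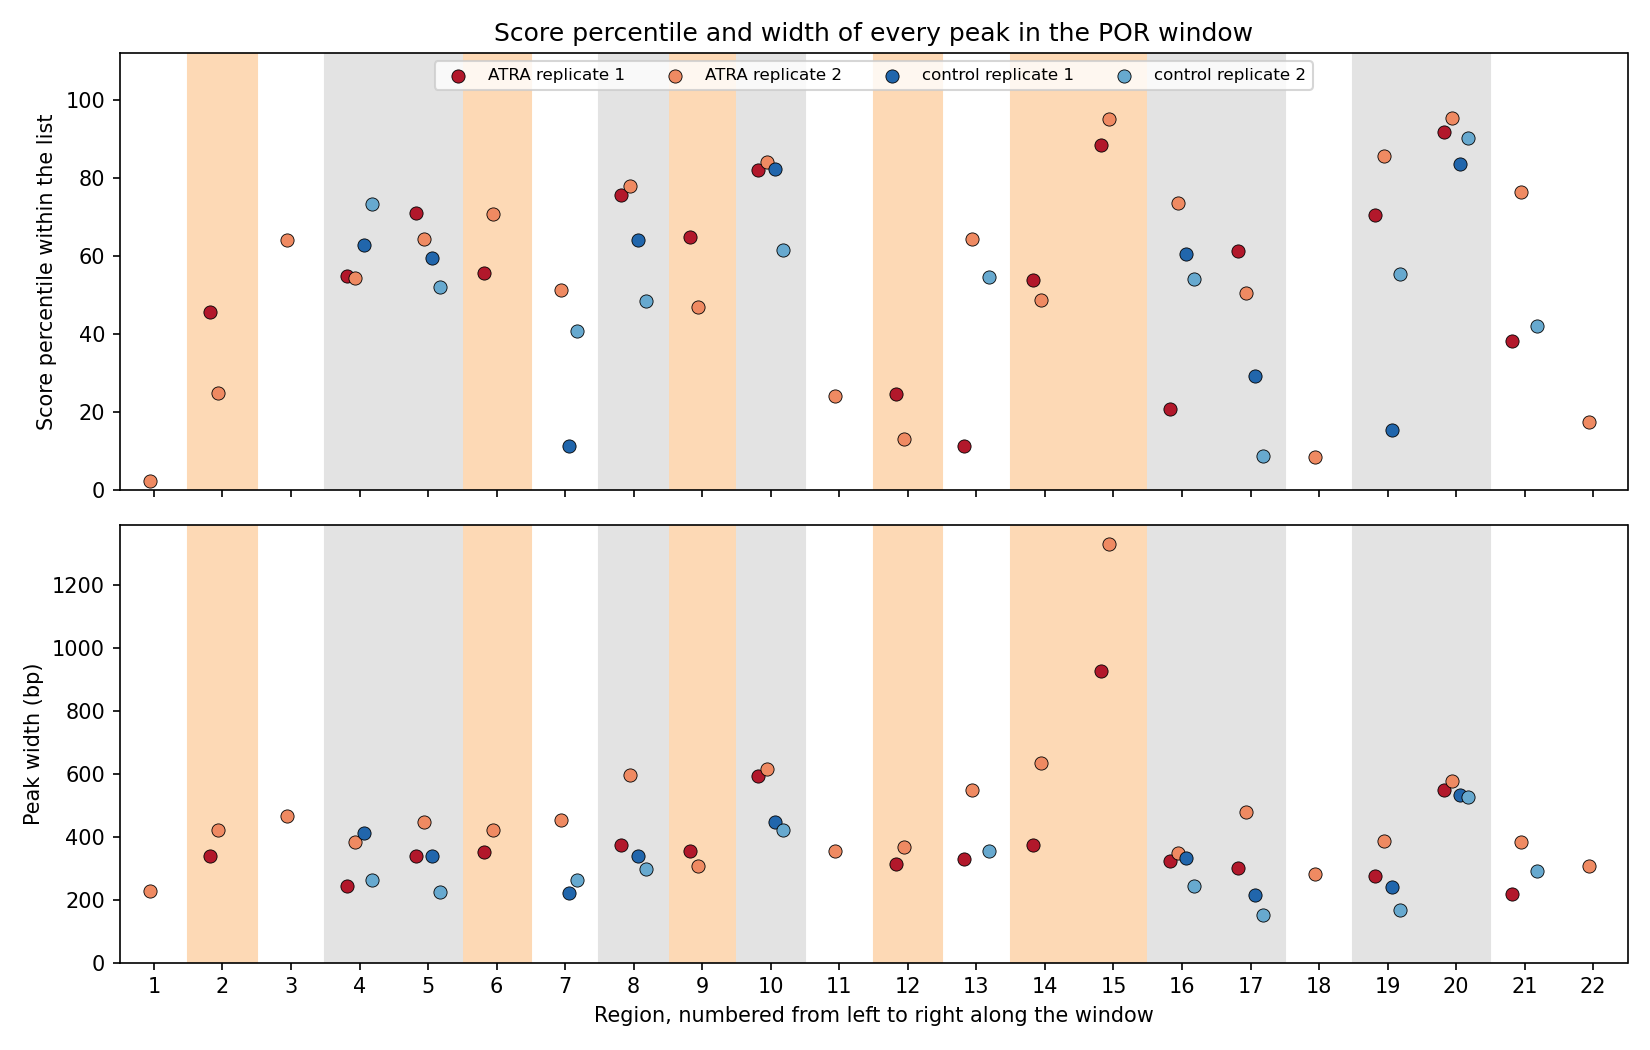
Score percentile within the list (upper panel) and peak width in bp (lower panel) of every peak in the POR window, by region from left to right and coloured by library. Orange columns are the 6 ATRA-only regions and gray columns the 8 regions open in all 4 libraries. Region 15 stands apart in width, at 927 bp and 1331 bp, and regions 17 and 19 show both ATRA points above both control points.

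GENCODE lists 16 start sites of coding POR transcripts, and they differed in which libraries were open there. The 7 starts of the main promoter, from -68 bp to 27 bp of the canonical one, all fell on region 10 (chr7:75543998-75544688), which was open in all 4 libraries and also covers the start of the microRNA gene MIR4651. There the score percentile was 81.9 in ATRA replicate 1, 84.0 in ATRA replicate 2, 82.2 in control replicate 1 and 61.5 in control replicate 2, so the groups overlapped. The width was 592 bp and 615 bp in the ATRA libraries and 448 bp and 422 bp in the control libraries, without overlap. Region 13 (chr7:75583181-75583730), at 39.0 kb, covered exon 2 and 1 further start. It had a peak in both ATRA libraries, with percentiles of 11.2 and 64.4, and in control replicate 2, with one of 54.6. The start at 30.2 kb lay on region 11, open in ATRA replicate 2 alone with a percentile of 24.2, and the 2 at 52.7 kb lay on region 14. The other 5 starts had no region from 1 kb upstream to 100 bp downstream.

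Among the 8 regions open in all 4 libraries, 5 had both ATRA score percentiles above both control ones, and 1, region 4 on RHBDD2, had both control ones higher. Over the series, 29.2% of the 23653 such regions had both ATRA percentiles higher and 12.8% both control ones. The widest difference was in region 19 (chr7:75652329-75652722), in an intron of STYXL1, which encodes a phosphatase-like protein without the activity of one. It stood at 70.6 and 85.7 in the ATRA libraries and at 15.4 and 55.5 in the control libraries. Region 17 (chr7:75626512-75626991), also in STYXL1, stood at 61.4 and 50.6 against 29.2 and 8.76, and at the RHBDD2 promoter region 8 stood at 75.6 and 78.0 against 64.1 and 48.5. Both ATRA peaks were wider than both control peaks in 5 of the 8 regions, where 36.9% of such regions in the series were. The median width ratio was 1.39 in the window and 1.24 over the series, and the median difference in percentile was 11.6 and 2.83 points. ATRA replicate 2 had wider peaks throughout, with a median width of 416 bp against 291 to 328 bp in the other lists, and the part of this in the width values was not tested.

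The remaining regions were weaker or varied between replicates. The 5 regions open in ATRA replicate 2 alone had percentiles from 2.28 to 64.1 in that list, the highest being region 3 on RHBDD2. Region 21, 154 kb from the canonical POR start and 1.73 kb behind the end of MDH2, was open in both ATRA libraries and control replicate 2. Region 7 on RHBDD2 was open in ATRA replicate 2 and both control libraries, with percentiles of 51.2, 11.2 and 40.8, and it was the control-specific convincing peak of the window.

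The neighbours shared most of these regions with POR, so the windows are not separate observations. RHBDD2 had 8 ATRA-only regions in its own window, 6 of them those of the POR window, and CCL24, which encodes the chemokine eotaxin-2, had 5, of which 3 were shared. MDH2, the gene for mitochondrial malate dehydrogenase, had 4 with 3 shared, and STYXL1 and TMEM120A, a membrane protein gene, had 4 each, all shared. No ATRA-only region lay within CCL24, TMEM120A, STYXL1 or MDH2. The main promoters of RHBDD2 and TMEM120A and the divergent promoter of STYXL1 and MDH2 were open in all 4 libraries, and neither CCL24 start was open in any. The STYXL1 and MDH2 promoter, region 20, was the best-scoring region of the window in all 4 lists, at percentiles of 91.7, 95.4, 83.6 and 90.1. Just outside the left edge, 2.72 kb away, lay a further ATRA-only region (chr7:75425000-75425797) with a score of up to 339. The first region inside that edge was open in ATRA replicate 2 alone, as were the last inside and the first outside the right edge. The adjoining 100 kb held 4 regions with 2 ATRA-only ones on the left and 5 regions with 1 on the right.

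Set beside the same window about each of 20136 protein-coding genes, 130 genes, or 0.646%, had at least as many ATRA-only regions as POR, and 41 had more. The median was 1 region and the highest count 9. Of the 130, 79, or 60.8%, also had no region with the opposite pattern, beside 75.2% of all protein-coding genes. Neighbouring genes share regions and longer genes have longer windows, and 79.4% of protein-coding genes were no longer than POR. Per 100 kb of window the share was 0.899%. The share was 1.54% when each list was reduced to its best 42081 peaks, with 4 ATRA-only regions left at POR. It was 3.61% when only peaks past a score percentile of 50 in each list were kept, with 3. Of those 3, region 17 is open in all 4 full lists and counted only because its control peaks fell below that threshold.

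**Figure D4:**
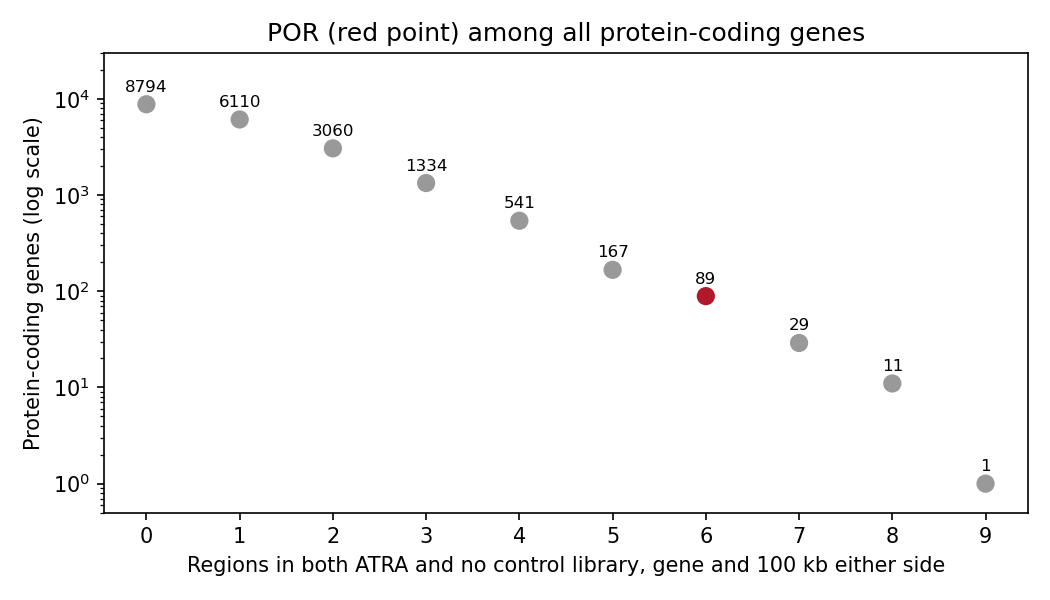
Number of protein-coding genes (log scale) with each number of ATRA-only regions in the gene and 100 kb on either side. POR is among the 89 genes with 6 such regions (red), and 41 genes have more.

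The genes whose windows were most like that of POR were sought by summing the differences in the number of regions over the 15 patterns of presence. The ATRA-only pattern is among these, so similar numbers of ATRA-only regions follow from the matching. The nearest was ENSG00000249240 on chromosome 15, a coding gene without a symbol, whose window differed by 4 regions and held 5 ATRA-only regions. ENSG00000248993 on chromosome 6 and LILRA6, a leukocyte immunoglobulin-like receptor gene on chromosome 19, differed by 5 regions each, with 4 and 5 ATRA-only ones. LAMB3, for a laminin chain, and NUMA1, for a spindle pole protein, differed by 6, with 5 and 4.

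The 12 motifs searched in the central 200 bp, on both strands, were each found in at most 3 of the 22 regions of the window. The DR5 of region 15 (AGGTCAGGCTGAGGTCA, chr7:75601337-75601353) is a pair of identical half-sites in intron 2, 378 bp before exon 3. It lay inside the peaks of both ATRA libraries, 290 bp from the peak centre in ATRA replicate 1 and 59 bp in ATRA replicate 2. A DR5 was held by 0.0961% of all regions of the series, by 0.387% of all ATRA-only regions and by 0.0423% of those open in all 4 libraries. Across the whole window, 2 DR5 matches, 3 DR1 matches and 39 DR2 matches were found, and the DR5 in region 15 was the only one of these inside a region. The CEBP motif (TTGCNNAA), bound by a factor family of granulocyte maturation, was in the ATRA-only regions 9 and 12 and in region 4, open in all 4 libraries. It was in 12.3% of all regions and in 15.3% of all ATRA-only ones. AP-1 (TGACTCA or TGAGTCA) was in region 2 and in region 11, open in ATRA replicate 2 alone, and in 5.73% of all regions and 8% of all ATRA-only ones. The GATA motif (AGATAA or TGATAA), which 18.8% of all regions held, was in regions 11, 17 and 22 and in none of the 6 ATRA-only regions. PU.1 (GAGGAAGT), with 8.95% of all regions, and RUNX (AACCACA), with 8.54%, were in region 4 alone. The E-box (CACGTG) was in 3.73% of all regions and in no region of the window, and ETS (CCGGAAGT) was in 1.11% and in regions 8 and 20. CTCF, DR1, DR2 and IRF, held by 5.88%, 0.0794%, 0.106% and 3.40% of all regions, were likewise in none of the 22. A match is a description of letters and does not show that a factor was bound.

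Base composition ranged widely within both kinds of region. The median GC content of the central 200 bp was 49.3% in the 6 ATRA-only regions, from 40.5% to 56.0%, and 59.5% in the 8 regions open in all 4 libraries, from 46.0% to 74.5%, the highest values being those of the POR and TMEM120A promoters. Over the series the medians were 46.0% and 52.0%. To see whether reads could have been placed at more than 1 site, words of 31 bases were counted across the genome. All words of regions 6, 9, 12, 14 and 15 and 95.7% of those of region 2 occurred at 1 place only. The lowest share in the window was 53.1%, in region 17.

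Enzymes that receive electrons from POR had such regions at a share near that of all genes. Of the 28 electron acceptors listed, 9 had an ATRA-only region within 50 kb of a start site and 4 had a region with the opposite pattern, where 34.3% and 13.0% of all protein-coding genes did. The 9 were HMOX1 and HMOX2, the heme oxygenases, CYP1B1, CYP2E1, CYP2R1, CYP2S1, CYP4F3, CYP17A1 and CYP19A1, with 1 to 3 regions each. CYP19A1, the aromatase gene, had 3. At CYP4F3, which encodes the leukotriene B4 hydroxylase of neutrophils, the promoter itself had a peak in both ATRA libraries and in neither control library. The retinoic acid hydroxylase genes CYP26A1, CYP26B1 and CYP26C1 had none. Of the 7 diflavin reductases, which share POR's arrangement of flavin domains, POR and NOS2, the inducible nitric oxide synthase gene, had an ATRA-only region and NOS3 had 1 of the opposite pattern. Of 7 other electron carriers, 5 had an ATRA-only region, FDX2 and FDX1 (ferredoxins), CYB5B (a cytochrome b5) and CYB5R1 and CYB5R3 (cytochrome b5 reductases), with 4, 2, 1, 1 and 1 regions, and none had the opposite pattern.

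Promoter peaks did not set the myeloid marker genes apart from all protein-coding genes, so they are no check of a myeloid cell type. Of 12 myeloid marker genes, 5 had a promoter peak in ATRA replicate 1, 7 in ATRA replicate 2, 6 in control replicate 1 and 5 in control replicate 2. These shares were near those of all protein-coding genes, of which 52.1%, 54.4%, 50.2% and 46.9% had one in the same libraries. SPI1, CEBPE, CD33 and ITGAM were open in all 4 libraries, CEBPA in 3, MPO in 2, PRTN3 and CSF3R in 1 each, and ELANE, AZU1, CYBB and FPR1 in none. None of 4 T cell and none of 4 erythroid markers had one. Of the B cell markers, CD79A had one in all 4 libraries and MS4A1 and PAX5 had none, and of 4 hepatocyte markers only TTR had one. A peak list records where a peak was called and not how much of the population was open there, so fewer open cells and weaker opening per cell cannot be told apart.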

How the data were processed

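ATAC-seq peak lists of 2 ATRA-treated and 2 ethanol-treated HL-60 libraries were used, with groups read from the titles. The authors, per the labels and the study's methods, trimmed adapters with cutadapt, placed reads on hg19 with Bowtie, and ran MACS2 on each library at default settings. The submitters' processing notes name Bowtie2, and MACS beside MACS2, and the peak names carry the older name, so which of them made the lists is not settled. Versions, duplicate removal and a Tn5 cut-site shift are not given in the sources used here, so peak edges may be shifted by some bases. The deposited score (50 to 3100, scale not stated) was used only as a percentile within its list. The deposited start and end columns, of a kind with no unit but bp (other), gave positions and widths. No counts are given, so the depth is unknown, and a deeper library can yield more and wider peaks.

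Peaks were joined into regions where they shared at least 1 bp, in Python 3.11.15 with numpy 2.4.6 and pandas 2.3.3, and drawn with matplotlib 3.10.9. All 24 chromosome names were in GRCh37, and no peak lay past the GRCh37 end of its chromosome. This alone does not settle the build, which is the one the study names. Genes and start sites came from GENCODE release 44 lifted to GRCh37. Coordinates are 1-based. The joining and presence calls were tested on simulated lists with known patterns. The window genes, and the 5 genes most like POR outside it, were named by rule. The locus, members, gene lists and motifs were chosen with earlier results of these data known. One marker gene is not reported here. Alternatives were lists of equal length, a score threshold, fixed-width peaks, smaller windows, a stricter overlap and leaving out each library.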

Additional observations from a re-analysis of the deposited data

How the results depend on the processing

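With ATRA replicate 2 the longest list and no depth known, presence calls near the score threshold are the least certain. Reducing all lists to 42081 peaks left 4 of the 6 ATRA-only regions (6, 9, 14 and 15) and 1.54% of genes with at least as many as POR. Keeping only peaks past a score percentile of 50 left 3 ATRA-only regions, of which regions 6 and 15 were among the 6. The third, region 17, is open in all 4 full lists, and its control peaks fell below that threshold. The same setting gave 4 regions in all 4 libraries, 5 ATRA-specific convincing peaks and 3.61% of genes. With peaks cut to 200 bp, region 15 was no longer shared by the ATRA libraries, since its 2 peak centres lay 231 bp apart, and 5 ATRA-only regions were left. With 50 kb on either side, 0.363% of genes had at least as many. The POR gene alone gave a peak ratio of 4.33, a covered ratio of 5.75, 7 regions, 1 of them in all 4 libraries, 5 ATRA-specific and 0 control-specific peaks. Leaving out 1 library at a time gave 6 to 11 ATRA-only regions, 0 to 1 of the opposite pattern, 6 to 13 ATRA-specific and 0 to 1 control-specific convincing peaks, the highest ATRA counts and the 0 control-specific peaks without ATRA replicate 1 and the 1 region of opposite pattern without ATRA replicate 2. Of 101 values under these alternatives, 85 stayed within the spread between libraries or, for counts and shares of genes, within 1.5 times. That spread was the SD over the pairs of 1 ATRA and 1 control library. Direction was looked at only for the ratios and the percentile difference between groups, where none was reversed. Choosing the locus by its ATRA-only peaks in these same lists favours that outcome for the peak and covered ratios, so it says little about stability. Some of the 85 could hardly move, since cutting peaks to 200 bp keeps their number and percentiles were not ranked again in changed lists. The ratios and the percentile difference with 1 library left out also draw on the same pairs that gave the spread. Fixed-width peaks give no width ratio. No paired analysis was made, since the results come from no test. The labels do not say whether replicates of the same number belong together.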
